A study of Mus musculus with 19 samples.

Results

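The mouse miRNA family of miR-148a, miR-148b and miR-152 comprises 3 genes, and it was followed here as mmu-miR-148a-3p, mmu-miR-148b-3p and mmu-miR-152-3p and the 5p arms of the same stems, 6 mature miRNAs of the 1136 on the array. The members were selected on measured values, because miR-148a-3p had been lower in the soleus of high-active mice and had leaned the same way in the nucleus accumbens, and the other members were added as its seed relatives. The strain differences of the family in these tissues are therefore given as descriptions without a test, and so are the differences between tissues of miR-148a-3p, which rest on the same arrays. The strain difference in the EDL and the differences between tissues of miR-148b-3p and miR-152-3p are tested. High-active mice were of the inbred strain C57L/J and low-active mice of the inbred strain C3H/HeJ, all male, aged 9 weeks at tissue collection after 1 week with a locked running wheel, so no mouse of either strain had been running. Tissue came from the nucleus accumbens (part of the brain's reward circuit), the soleus (a slow postural muscle) and the extensor digitorum longus (EDL, a fast muscle) of 8 mice, and 19 single-colour Agilent arrays were analysed. In the nucleus accumbens 4 arrays were high-active and 3 low-active, in the soleus 4 high-active and 2 low-active, and in the EDL 2 high-active and 4 low-active. Each group is a single inbred strain, so activity level and every other difference between C57L/J and C3H/HeJ cannot be told apart.

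A miRNA recognises its targets mainly through its seed, bases 2 to 8 from the 5′ end, so miRNAs with the same seed can pair with overlapping sets of messenger RNAs. The family is known for targeting DNA methyltransferase 1 in human cells, miR-148a for acting on cholesterol handling in the liver of mice and for promoting differentiation in a mouse myoblast line. The mature sequences below, from RefSeq on GRCm38.p6, are shown because the comparison of seed relatives turns on them. Capitals mark the seed, which is the same in the 3 3p arms.
miR-148a-3p: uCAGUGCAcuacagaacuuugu
miR-148b-3p: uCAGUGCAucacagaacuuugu
miR-152-3p: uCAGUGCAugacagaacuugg

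All 6 members were matched by name, and no other mature sequence among the 1738 mouse ones in the RefSeq table has this seed. Counted from the 5′ end, miR-148b-3p differs from miR-148a-3p by C9U and U10C, and 20 of 22 bases are the same. miR-152-3p differs from miR-148a-3p by C9U, U10G and U20G over the 21 bases they can be compared on. miR-152-3p differs from miR-148b-3p by C10G and U20G. Mir148a lies on the minus strand at chr6:51269812-51269910, within the annotated span of the predicted gene Gm38821. Mir148b lies on the plus strand at chr15:103285125-103285221 within Copz1, and Mir152 on the plus strand at chr11:96850393-96850465 within Copz2. Copz1 and Copz2 encode paralogous subunits of the coatomer, the coat of vesicles that move between the Golgi apparatus and the endoplasmic reticulum. The 5p arms follow, again with the seed in capitals, since their seeds do not group the stems in the same way.
miR-148a-5p: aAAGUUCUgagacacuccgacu
miR-148b-5p: gAAGUUCUguuauacacucaggcu
miR-152-5p: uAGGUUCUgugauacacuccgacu

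The 3p arms were measurable everywhere and the 5p arms nowhere. miR-148a-3p, miR-148b-3p and miR-152-3p were detected on all 19 arrays. Each has 2 probes of 20 spots, and both probes of miR-148a-3p and of miR-152-3p were detected on all 19, while the dimmer probe of miR-148b-3p was detected on 9, so that this miRNA rests on 1 probe on the other arrays. Apart from outlier spots, which were left out, no spot of any 5p probe was well above background on any array. The highest mean intensity of a probe was 2.45 for miR-148a-5p, 2.30 for miR-148b-5p and 0.48 for miR-152-5p, after a background subtraction that also left negative means down to -7.62. The 5p arms enter no comparison, and their values give no order.

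The arrays were comparable in kind but not in brightness. High-active soleus arrays showed 266 to 315 detected miRNAs and low-active ones 342 and 346. The 75th percentile of the commonly detected probes was 588 to 1001 intensity units on high-active and 1206 and 1357 on low-active soleus arrays, 834 to 1338 and 558 to 902 in the nucleus accumbens, and 755 and 1161 against 480 to 1290 in the EDL. All 6 brain miRNAs on the marker list were detected on every nucleus accumbens array, and all 4 muscle miRNAs on every muscle array. The slow-fibre miRNAs miR-208b-3p and miR-499-5p, which lie in slow myosin genes, were both detected on every soleus array, and miR-208b-3p on no EDL array. Summed over the list, muscle miRNAs reached 459 to 604 scaled units in the high-active and 447 to 2313 in the low-active nucleus accumbens, against 422065 to 561549 in high-active and 421560 to 532347 in low-active soleus.

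In the soleus, miR-148a-3p was lower in every high-active array than in either low-active array, while its seed relatives were level. The log2 scaled signal of miR-148a-3p was 7.30, 7.12, 7.01 and 7.10 in high-active mice 223, 224, 225 and 227, against 8.42 and 7.93 in low-active mice 194 and 195. The groups are separated by 0.63, wider than the range of the high-active arrays. miR-148b-3p was at 6.12, 5.91, 6.08 and 6.40 in the same high-active mice, against 6.31 and 6.03 in the low-active mice, and miR-152-3p at 8.11, 8.08, 8.14 and 8.20 against 8.40 and 8.06. For both, the low-active arrays overlap the high-active ones. The difference, high-active minus low-active, was -1.04 for miR-148a-3p (SE 0.164), or 2.06-fold lower, -0.04 for miR-148b-3p (SE 0.163) and -0.10 for miR-152-3p (SE 0.112). These values contributed to the choice of the family and are given as a description. Of the 342 miRNAs tested in the soleus, 17.3% had every high-active array above every low-active array and 12.3% every high-active array below, and the median difference was -0.02.

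The soleus difference was seen on both probes of miR-148a-3p, again as a description, since the same arrays chose the family. It was -1.04 on the brighter probe and -1.02 on the dimmer one, each detected on all 4 high-active and both low-active arrays. Within slide 1, which held 1 array of each strain, the difference was -0.92, and within slide 2, with 2 high-active arrays and 1 low-active array, it was -1.31. The size of the difference depended on the processing. It was -1.75 without scaling, -0.58 with normexp background correction, and -0.08 with outlier spots kept, where 2 outlier spots raised the mean of the dimmer probe in high-active mouse 227 to 1048 intensity units, against 82.9 without them. Other measures of the soleus arrays also differed between the strains. Beside the difference in brightness and in detected miRNAs given above, the summed slow-fibre miRNAs were 1691 to 2470 in high-active and 1135 and 1410 in low-active soleus, and both slow-fibre miRNAs had higher means in high-active mice. The summed leukocyte miRNAs, 4 of 5 detected, were 1813 to 2101 in high-active and 1511 and 1522 in low-active soleus. The summed epithelial miRNAs were 29.0 to 106 in high-active and 112 and 136 in low-active soleus, with 5 of the 7 detected on no soleus array, the miR-200 members and miR-141-3p and miR-429-3p among them. Their part in the result was not tested. The muscle sums given above overlapped, as did vascular (11777 to 14018 in high-active and 11512 to 12868 in low-active), red cell (3982 to 6838 and 5371 to 5703) and brain miRNAs (1614 to 2619 and 2389 to 2394), and none of the 4 miRNAs of liver and pancreas was detected. In the EDL, the summed leukocyte miRNAs were 1561 to 1611 in high-active and 1181 to 1343 in low-active arrays. The epithelial sums there were 13.7 to 27.4 and 79.3 to 243, and the slow-fibre sums 55.5 to 57.9 and 29.6 to 73.8. The vascular sums were 9739 to 10675 in high-active and 7293 to 9711 in low-active EDL. The leukocyte, epithelial and vascular sums did not overlap between the strains in the EDL. The slow-fibre, muscle, red-cell and brain sums did overlap there. In whole tissue, fewer cells of a type and less of a miRNA per cell cannot be told apart.

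**Figure D1:**
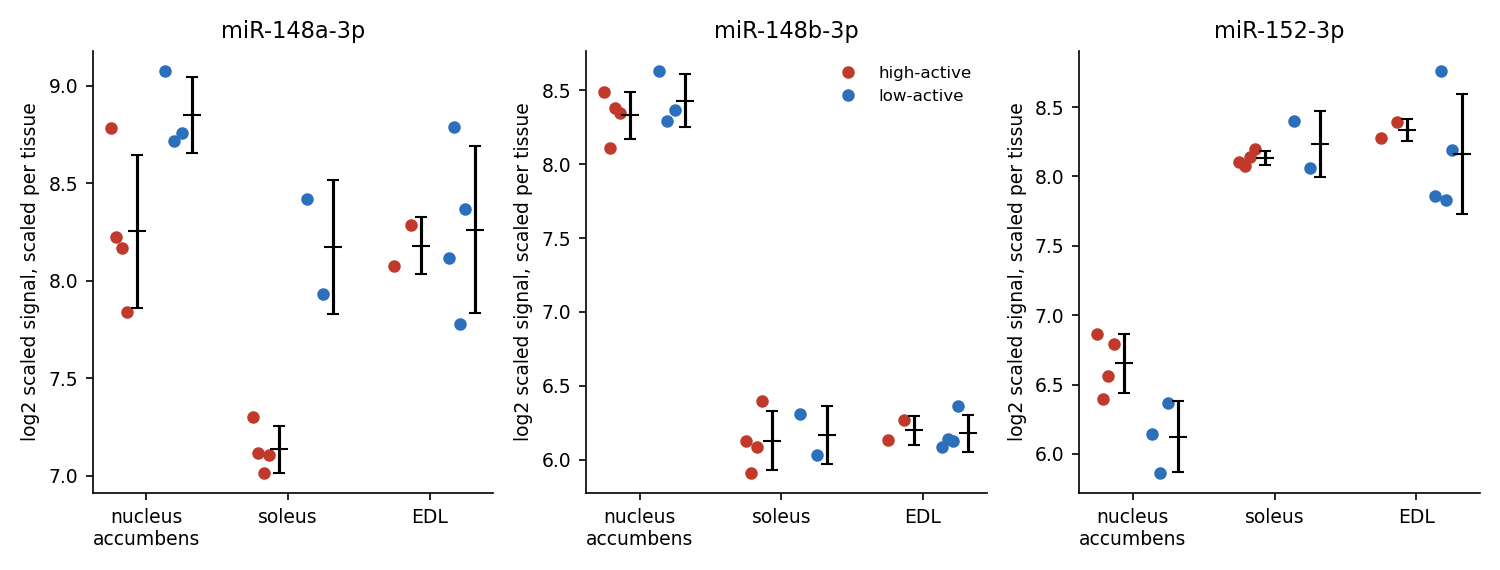
Log2 scaled signal of the 3 3p arms on each array, scaled within each tissue, by tissue and strain, high-active (red) left of low-active (blue). Points are arrays, and black bars are means with SD. High-active soleus arrays lie at 7.01 to 7.30 for miR-148a-3p, below both low-active arrays, while miR-148b-3p and miR-152-3p overlap between strains in the soleus.

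In the nucleus accumbens, miR-148a-3p and miR-152-3p had opposite differences and miR-148b-3p was level. miR-148a-3p was at 8.78, 8.22, 8.17 and 7.84 in high-active mice 223, 224, 225 and 227, against 9.08, 8.71 and 8.76 in low-active mice 194, 195 and 197. High-active mouse 223 lies within the low-active range and the other 3 lie below it. miR-152-3p was at 6.86, 6.40, 6.56 and 6.79 in high-active mice, against 6.14, 5.86 and 6.37 in low-active mice. The groups do not overlap, but the gap between mouse 224 and mouse 197 is only 0.03. miR-148b-3p was at 8.49, 8.11, 8.38 and 8.34 in high-active mice and 8.63, 8.29 and 8.36 in low-active mice, which overlap. The differences were -0.60 for miR-148a-3p (SE 0.226), 0.53 for miR-152-3p (SE 0.174) and -0.10 for miR-148b-3p (SE 0.144), against a median of -0.11 over the 391 miRNAs tested. They too are descriptions. In this tissue 3.84% of miRNAs had every high-active array above every low-active array and 14.6% every high-active array below.

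In the nucleus accumbens, miR-148a-3p and miR-152-3p kept their directions on both probes and within both slides that held both strains, but the sizes varied. This is again a description, since the same arrays contributed to the choice of the family. The dimmer probe of miR-148a-3p differed by -0.54 and that of miR-152-3p by 0.57. Without scaling the difference of miR-148a-3p was -0.21 and that of miR-152-3p 0.91, and with normexp background correction that of miR-152-3p was 0.07. The probes of miR-148b-3p disagreed, at -0.10 on the brighter and 0.32 on the dimmer one. Within slide 2, with 1 array of each strain, miR-148a-3p differed by -0.55 and miR-152-3p by 0.70. Within slide 3, with 3 high-active arrays and 1 low-active array, they differed by -0.48 and 0.31. Marker sums spread widely here. Epithelial miRNAs, with miR-205-5p detected on no array, summed to 207 to 21691 in high-active and 59.6 to 6194 in low-active mice, red-cell miRNAs to 2012 to 5103 and 4465 to 13666, and liver and pancreas miRNAs, of which 1 of 4 was detected, to 28.1 to 42.3 and 62.1 to 98.4. The epithelial and red-cell sums overlapped between the strains, and those of liver and pancreas did not. Brain (98976 to 126330 and 83282 to 123492), leukocyte (999 to 1395 and 945 to 1168) and vascular miRNAs (3616 to 4642 and 3700 to 4080) also overlapped, and neither slow-fibre miRNA was detected. Their part in these differences was not tested.

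In the EDL, no member of the family differed between strains beyond the spread between mice. miR-148a-3p was at 8.08 and 8.28 in high-active mice 225 and 227, against 8.12, 8.79, 7.78 and 8.37 in low-active mice 194, 195, 196 and 197. Both high-active values lie inside the low-active range. miR-148b-3p was at 6.13 and 6.27 in high-active mice and 6.09, 6.14, 6.12 and 6.36 in low-active mice, and miR-152-3p at 8.28 and 8.39 in high-active mice and 7.86, 8.76, 7.83 and 8.19 in low-active mice. The array of low-active mouse 195 gave the highest value of miR-148a-3p and of miR-152-3p, and it was the dimmest EDL array. With limma's moderated test, the difference was -0.08 for miR-148a-3p (SE 0.304, 95% interval -0.81 to 0.64, adjusted p = 0.940), 0.02 for miR-148b-3p (SE 0.189, -0.43 to 0.47, adjusted p = 0.972) and 0.18 for miR-152-3p (SE 0.304, -0.55 to 0.90, adjusted p = 0.934).

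None of the 3 members passed the test in the EDL, where the adjusted p was under 0.05 for 0.303% of the 330 miRNAs tested in the higher direction and 0% in the lower, and 9.09% and 10.6% had every high-active array above or below every low-active array. Within slide 1, miR-148a-3p differed by -0.51 and miR-152-3p by -0.37, and within slide 3 by -0.29 and 0.09, with 1 array of each strain on each slide. miR-148b-3p differed by 0.13 and -0.23 on these slides. Whether the strain difference of miR-148a-3p differed between the muscles was not tested, since the soleus values chose the family. Scaled over all 19 arrays together, the strain difference of miR-148a-3p was -1.10 in the soleus, -0.63 in the nucleus accumbens and -0.07 in the EDL.

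**Figure D2:**
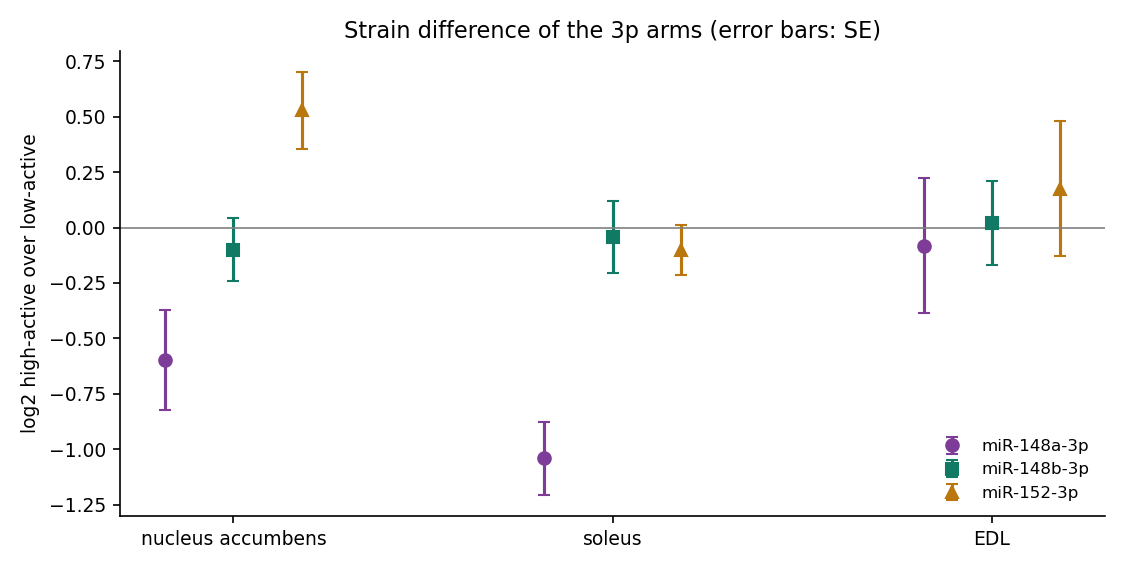
Difference in log2 scaled signal, high-active over low-active, of the 3 3p arms in the nucleus accumbens, soleus and EDL, with SE. miR-148a-3p lies at -0.60, -1.04 and -0.08, and the only other difference of over 0.2 is that of miR-152-3p in the nucleus accumbens, 0.53.

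Between tissues, the family's members moved in opposite directions. miR-148b-3p was higher in the nucleus accumbens than in either muscle, and miR-152-3p was lower there. The mean of miR-148a-3p was lower in the soleus than in the EDL under each scaling, but the place of the nucleus accumbens changed. For the comparison of tissues all 19 arrays were scaled together and the strains were averaged in the fit, with mouse as a random block. Over both strains, miR-148b-3p lay at 7.95 to 8.51 in the nucleus accumbens, 5.95 to 6.34 in the soleus and 6.26 to 6.50 in the EDL. The nucleus accumbens stands apart from both muscles and the muscles overlap. miR-152-3p lay at 5.59 to 6.75 in the nucleus accumbens, 8.12 to 8.41 in the soleus and 8.08 to 8.88 in the EDL, again with the muscles overlapping, now above the brain region. miR-148a-3p lay at 7.55 to 8.96 in the nucleus accumbens, 7.05 to 8.43 in the soleus and 8.02 to 8.91 in the EDL, and all 3 ranges overlap.

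Nucleus accumbens over soleus, miR-148b-3p differed by 1.97 on the log2 scale (SE 0.0897, adjusted p = 5.73e-12 from limma), which is 3.92-fold higher, and miR-152-3p by -2.05 (SE 0.139, adjusted p = 1.07e-09), which is 4.15-fold lower. Nucleus accumbens over EDL, the differences were 1.80 (SE 0.0902, adjusted p = 2.12e-11) and -2.25 (SE 0.140, adjusted p = 3.74e-10). The 4 differences kept their direction and stayed past the threshold under each of the 3 other scalings, but with the deposited signal per miRNA those of miR-148b-3p did not pass, as described below. Soleus over EDL, neither passed, at -0.17 for miR-148b-3p (SE 0.0960, 95% interval -0.37 to 0.04, adjusted p = 0.331) and -0.20 for miR-152-3p (SE 0.149, -0.52 to 0.12, adjusted p = 0.53). In order of level, miR-148b-3p was thus highest in the nucleus accumbens, then in the EDL and the soleus. miR-152-3p was highest in the EDL, then in the soleus and lowest in the nucleus accumbens. In both orders the ranges of the muscles overlapped and their difference did not pass the test.

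In the comparisons of the nucleus accumbens, the same directions were seen in each mouse with both tissues. miR-148b-3p was higher in the nucleus accumbens than in the soleus in 6 of 6 mice, by 1.72 to 2.23, and than in the EDL in 5 of 5 mice, by 1.56 to 2.11. miR-152-3p was lower in the nucleus accumbens than in the soleus in 6 of 6 mice, by 1.38 to 2.64, and than in the EDL in 5 of 5 mice, by 2.02 to 3.29. Soleus over EDL, miR-148b-3p was lower in 4 of 4 mice (-0.16 to -0.06) and miR-152-3p in 3 of 4 (-0.65 to 0.23). The difference between the changes of miR-148b-3p and miR-152-3p was 3.96 ± 0.48 (SD, n = 6 mice) for nucleus accumbens over soleus. A two-sided exact sign-flip permutation test over these mice gave p = 0.0312, the smallest that 6 mice allow (adjusted p = 0.0938 over the 9 pairs of members and tissues compared). For nucleus accumbens over EDL it was 4.16 ± 0.55 (SD, n = 5 mice), with an exact p of 0.0625, the smallest 5 mice allow.

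**Figure D3:**
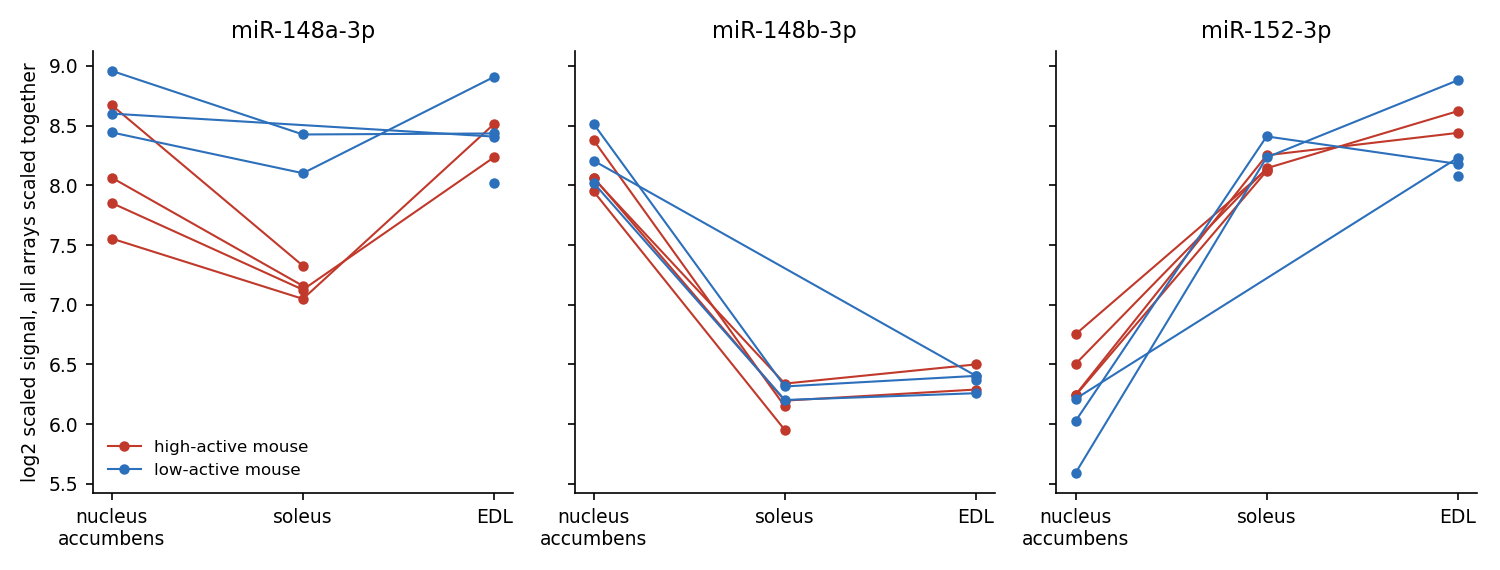
Log2 scaled signal of the 3 3p arms by tissue, all arrays scaled together, with lines joining the tissues of a mouse (red high-active, blue low-active). Every line of miR-148b-3p falls between the nucleus accumbens and muscle and every line of miR-152-3p rises, while levels of different miRNAs are not compared with each other.

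For miR-148a-3p the contrast between brain and muscle was small and depended on how the arrays were scaled. Because the values of the same soleus and nucleus accumbens arrays chose the family, its differences between tissues are given as descriptions. Nucleus accumbens over soleus, it differed by 0.64 (SE 0.171), and it was higher in the nucleus accumbens in 6 of 6 mice, by 0.34 to 1.35. Over all arrays of a strain the difference was 0.87 in high-active and 0.40 in low-active mice. With arrays scaled over all probes the difference was 0.08, and with quantile normalization it was -0.26. The median over the 484 miRNAs tested was 0.20 in the main scaling, -0.13 over all probes and -0.11 after quantile normalization, so the whole comparison moves with this choice. Nucleus accumbens over EDL, miR-148a-3p differed by -0.08 (SE 0.171), with 2 of 5 mice higher in the nucleus accumbens, by -0.73 when scaled over all probes and by -0.81 after quantile normalization. Over the 6 mice with nucleus accumbens and soleus, the change of miR-148a-3p minus that of miR-148b-3p was -1.25 ± 0.28 (SD), and minus that of miR-152-3p it was 2.71 ± 0.30 (SD).

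Soleus over EDL, the difference of miR-148a-3p averaged -0.72 over the strains (SE 0.183), again as a description. In high-active mice 225 and 227 the soleus was at 7.13 and 7.05, against 8.24 and 8.51 in the EDL of the same animals. In low-active mice 194 and 195 it was at 8.43 and 8.10 in the soleus, against 8.43 and 8.91 in the EDL. The within-mouse difference was thus -1.11 and -1.47 in high-active mice and -0.01 and -0.81 in low-active mice. Over all arrays of a strain the difference was -1.21 in high-active and -0.18 in low-active mice. The average over strains was -0.46 without scaling, -0.85 with mouse as a fixed block and -0.64 without the soleus array of low-active mouse 195. In the main scaling the mean of miR-148a-3p was 8.42 ± 0.30 in the EDL (SD, n = 6), 8.31 ± 0.50 in the nucleus accumbens (n = 7) and 7.53 ± 0.58 in the soleus (n = 6), and the places of the nucleus accumbens and the soleus turned after quantile normalization.

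Large shares of all miRNAs differed between brain and muscle. Nucleus accumbens over soleus, 47.3% of the 484 miRNAs tested were higher and 32% lower (229 and 155 miRNAs). Nucleus accumbens over EDL, 47.7% were higher and 29.1% lower (231 and 141), and soleus over EDL 7.23% were higher and 9.92% lower (35 and 48). Scaled over all probes these splits were 191 and 204, 179 and 202, and 26 and 54, and without scaling they were 221 and 160, 233 and 114, and 56 and 2. Of miR-148b-3p and miR-152-3p, 1 was higher and 1 lower in both comparisons of the nucleus accumbens, where most miRNAs passed the test in either direction, and 0 passed in soleus over EDL. A change at least as far down as that of miR-152-3p was found in 9.09% and 6.82% of miRNAs over soleus and EDL, and one at least as far up as that of miR-148b-3p in 24.2% and 23.8%.

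**Figure D4:**
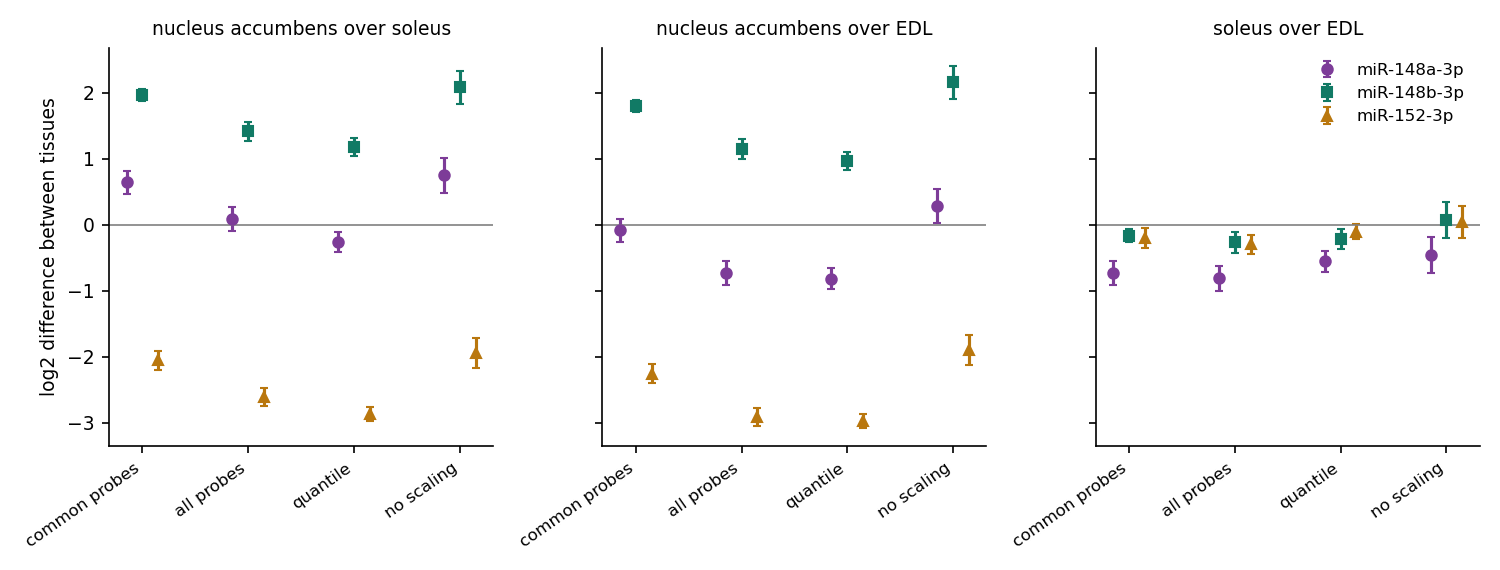
Log2 difference between tissues of the 3 3p arms, with SE, under 4 ways to scale the arrays: by the 75th percentile over the commonly detected probes (the main setting) or over all probes, by quantile normalization, and without scaling. miR-148b-3p stays above 0 and miR-152-3p below 0 in both comparisons of the nucleus accumbens, while miR-148a-3p lies on either side of 0.

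The signal that the scanner software deposits for miR-148b-3p did not always come from its own probes. On all 7 nucleus accumbens arrays, both of its probes were detected and the deposited signal, 84.6 to 263, equalled their sum within 1%. The dimmer probe was detected on no soleus array and on 2 of 6 EDL arrays. On 5 of 6 soleus arrays and 3 of 6 EDL arrays the deposited signal instead equalled the total of the brighter probe plus the whole deposited signal of miR-148a-3p, within 1%. It was then 81.8 to 258 in the soleus and 160 to 183 in the EDL, where the sum over its own probes was 20.5 to 40.7 and 14.0 to 32.7. The deposited signals of miR-148a-3p and miR-152-3p equalled the sum of their own probes on all 19 arrays. With the deposited signals, miR-148b-3p differed by 0.36 (adjusted p = 0.553 from limma) in nucleus accumbens over soleus and by 0.29 (adjusted p = 0.640) over EDL, in place of 1.97 and 1.80, and by 0.44 between strains in the soleus, in place of -0.04.

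**Figure D5:**
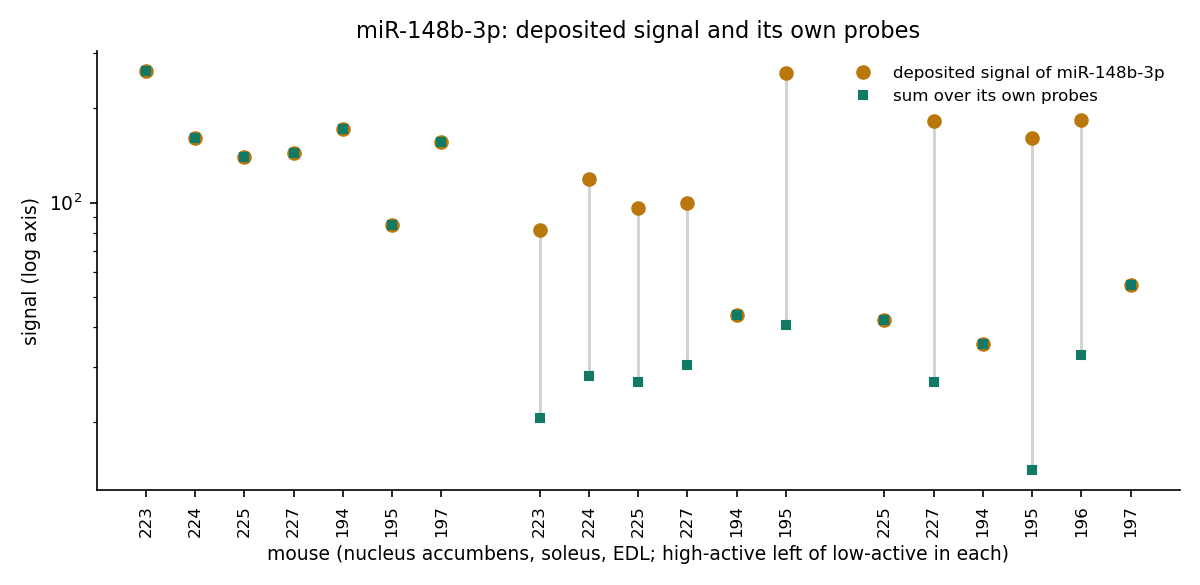
Signal of miR-148b-3p on each array, on a log axis, as deposited per miRNA (orange circles) and as the sum over its own probes (green squares), by tissue and mouse. The 2 coincide on all 7 nucleus accumbens arrays and lie apart on 5 soleus and 3 EDL arrays, where the deposited values of 81.8 to 258 include the signal of miR-148a-3p.

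The miR-130/301 family carries the same 7 letters, CAGUGCA, shifted by 1 base, so its seed overlaps without being the same. The sequences of the measured relatives miR-130a-3p and miR-301a-3p are shown for comparison, with their own seed in capitals.
miR-130a-3p: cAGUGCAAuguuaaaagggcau
miR-301a-3p: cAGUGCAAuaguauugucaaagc

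Of the 5 relatives listed (miR-130a-3p, miR-130b-3p, miR-301a-3p, miR-301b-3p and miR-721), 3 were detected widely enough to be tested in each tissue. They were miR-130a-3p and miR-301a-3p, with miR-130b-3p in the nucleus accumbens and miR-721 in the soleus and EDL. Between strains, 0 of 3 passed in any tissue, while without scaling 1 was lower in the soleus. Over all miRNAs, 1.02% were higher and 5.88% lower in the nucleus accumbens, 0.292% and 0.877% in the soleus, and 0.303% and 0% in the EDL. The medians of the 3 relatives tested were -0.14 in the nucleus accumbens, 0.00 in the soleus and 0.05 in the EDL. Those over all miRNAs were -0.11, -0.02 and 0.02. In the nucleus accumbens the relatives' median was 0.08 when scaled over all probes. miR-130a-3p differed by -0.20, 0.00 and -0.16 in the nucleus accumbens, soleus and EDL, and miR-301a-3p by -0.06, 0.30 and 0.05. miR-721 differed by -0.50 in the soleus (SE 0.668) and by 0.06 in the EDL (SE 0.524). In nucleus accumbens over soleus, 4 were tested, 2 were higher and 2 lower, with a median of 0.54, against 47.3% higher, 32% lower and a median of 0.20 over all miRNAs. miR-301a-3p was higher, by 2.47 (SE 0.214, adjusted p = 2.48e-08 from limma), and miR-130a-3p was lower (log2 difference -0.28, adjusted p = 0.0184). Over EDL, 2 were higher and 1 lower, and soleus over EDL 1 was higher, miR-130a-3p at 0.33 (adjusted p = 0.0481), which did not pass when scaled over all probes or unscaled.

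Among the 9 listed miRNAs reported to target DNA methyltransferases, the function the family is best known for, 1 was higher and 0 lower in high-active mice in each tissue. The shares over all miRNAs were 1.02% and 5.88% in the nucleus accumbens and 0.292% and 0.877% in the soleus. In the EDL they were 0.303% and 0%. The list was chosen with earlier results of these data known. The listed miRNA that passed was miR-342-3p in each case, at 2.13 in the nucleus accumbens (adjusted p = 1.52e-04 from limma), 2.36 in the soleus (adjusted p = 0.00620) and 2.34 in the EDL (adjusted p = 0.00786). In the nucleus accumbens it passed in all 14 other settings. In the soleus it did not pass with slide as a block (2.47, adjusted p = 0.0625) or without the filter (adjusted p = 0.0784), the other 12 settings giving adjusted p-values down to 5.99e-04. In the EDL it did not pass without scaling (adjusted p = 0.143), with normexp (1.26, adjusted p = 0.348), without the filter (adjusted p = 0.155), or without high-active mouse 225 (adjusted p = 0.199), high-active mouse 227 (adjusted p = 0.178) or low-active mouse 194 (adjusted p = 0.0715). The miR-29 members differed by -0.09 to 0.35 between strains and did not pass. The list's medians were 0.11, 0.08 and 0.35 in the nucleus accumbens, soleus and EDL, against -0.11, -0.02 and 0.02 over all miRNAs. Without scaling, 1 of the 9 was higher and 2 were lower in high-active soleus. In nucleus accumbens over soleus 6 of 9 were higher and 2 lower, over EDL 5 and 2, and in soleus over EDL 3 and 0, with medians of 0.97, 1.43 and 0.16. Over all miRNAs, 47.3% were higher and 32% lower over soleus, 47.7% and 29.1% over EDL, and 7.23% and 9.92% in soleus over EDL, with medians of 0.20, 0.20 and -0.00. miR-29a-3p was higher in the nucleus accumbens by 1.48 over soleus (SE 0.103, adjusted p = 1.35e-09), and the endothelial miR-126-3p was lower (log2 difference -1.91). miR-101b-3p, 1 of the 6, turned downward after quantile normalization, and in soleus over EDL 0 of the 9 passed over all probes or without scaling and 1 after quantile normalization.

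Of the listed miRNAs of cholesterol and lipid handling, 0 of 7 passed between strains in the nucleus accumbens, 0 of 6 in the soleus and 0 of 6 in the EDL, with medians of 0.16, 0.07 and 0.24. Passing shares over all miRNAs were 1.02% higher and 5.88% lower in the nucleus accumbens and 0.292% and 0.877% in the soleus. They were 0.303% and 0% in the EDL, and the medians over all miRNAs were -0.11, -0.02 and 0.02. The brightest of the list were miR-30c-5p, which differed by 0.30, 0.52 and 0.61, miR-128-3p (0.18, -0.22 and 0.18), miR-27b-3p (0.28, 0.16 and 0.01) and miR-27a-3p (-0.07, -0.02 and 0.04). Between tissues, 2 of 8 were higher and 3 lower in nucleus accumbens over soleus and likewise over EDL, with medians of -0.18 and 0.00, and in soleus over EDL 2 were higher and 0 lower, with a median of 0.29. The shares over all miRNAs were 47.3% and 32%, 47.7% and 29.1%, and 7.23% and 9.92%, with medians of 0.20, 0.20 and -0.00. The members higher in soleus over EDL were miR-27a-3p (1.06, SE 0.163, adjusted p = 2.35e-04) and miR-27b-3p (0.67, SE 0.0817, adjusted p = 3.49e-05).

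Of the listed miRNAs that promote muscle cell differentiation, 0 of 8, 0 of 12 and 0 of 11 passed between strains in the nucleus accumbens, soleus and EDL, with medians of 0.03, 0.01 and 0.13. Passing shares over all miRNAs were 1.02% higher and 5.88% lower in the nucleus accumbens and 0.292% and 0.877% in the soleus. They were 0.303% and 0% in the EDL, and the medians over all miRNAs were -0.11, -0.02 and 0.02. Without scaling, 1 listed miRNA was lower in high-active soleus. miR-133b-3p, miR-26a-5p, miR-1a-3p and miR-133a-3p, the brightest of the list, differed by -0.03 to 0.09 in the soleus. The differences farthest from 0 there were those of miR-208b-3p (1.35, SE 0.276, adjusted p = 0.0914), miR-206-3p (0.89, SE 0.242, adjusted p = 0.150) and miR-499-5p (0.55, SE 0.178, adjusted p = 0.210), chosen after their values were seen. In nucleus accumbens over soleus 4 of 12 were higher and 8 lower, over EDL 3 and 7, and in soleus over EDL 3 higher and 2 lower, with medians of -4.18, -2.73 and -0.25, against 47.3% and 32%, 47.7% and 29.1%, and 7.23% and 9.92% over all miRNAs, whose medians were 0.20, 0.20 and -0.00. miR-26a-5p, higher over soleus, turned downward when scaled over all probes, and without scaling 0 were lower in soleus over EDL. miR-1a-3p, a miRNA of heart and skeletal muscle, was lower in nucleus accumbens over soleus (log2 difference -9.61, SE 0.275, adjusted p = 1.31e-14). miR-206-3p, a miRNA of skeletal muscle, was higher in soleus over EDL by 3.35 (SE 0.305, adjusted p = 1.73e-06).

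The miRNAs most like each member were different ones. Over the 19 arrays and the 183 other miRNAs detected on all of them, described by Pearson's r, the pattern of miR-148b-3p was most like that of miR-154-5p (0.99), miR-379-5p (0.99), miR-221-3p (0.99), miR-335-5p (0.98) and miR-331-3p (0.98), and that of miR-152-3p like miR-199b-5p (0.98), miR-199a-3p (0.98), miR-1a-3p (0.96), miR-378b (0.96) and miR-133a-3p (0.96). The pattern of miR-148a-3p was most like that of miR-29c-5p (0.67), miR-669f-3p (0.63), miR-500-3p (0.61), miR-146b-5p (0.60) and miR-676-3p (0.59). Between the members themselves the value was -0.94 for miR-148b-3p with miR-152-3p, 0.37 for miR-148a-3p with miR-148b-3p and -0.19 for miR-148a-3p with miR-152-3p. The arrays share mice, slides and the scaling and fall into 3 tissues, so these values mostly restate the differences between tissues.

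As deviations from each tissue's mean, which leave the strain differences in, miR-148a-3p was most like miR-140-5p (0.86), miR-324-5p (0.79), miR-146b-5p (0.68), miR-140-3p (0.68) and miR-669f-3p (0.65), the arms of miR-140 among them. miR-148b-3p was most like the red-cell miR-451a (0.72), miR-15b-5p (0.66), miR-25-3p (0.66), miR-378b (0.64) and miR-337-3p (0.60). miR-152-3p was most like miR-15a-5p (0.74), miR-199b-5p (0.69), miR-690 (0.60), miR-199a-3p (0.60) and miR-497-5p (0.59). Here the members' likeness to each other was 0.49 for miR-148a-3p with miR-148b-3p, 0.17 for miR-148a-3p with miR-152-3p and 0.14 for miR-148b-3p with miR-152-3p.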

How the data were processed

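Mature miRNAs were measured in 3 tissues of high-active and low-active mice on 19 arrays. The deposited scanner files give a background-subtracted intensity for every spot, as the authors' Feature Extraction software wrote it, unscaled between arrays. A further deposited table carries log2 values after the authors' normalization, which served only as an alternative. Its differences between miR-152-3p and miR-148a-3p match the scanner files within 0.01. Those between miR-148b-3p and miR-148a-3p are off on 9 of 19 arrays, by up to 0.28, against its own probes and on 12 of 19, by up to 2.32, against its deposited total. The table's centring and percentile stay unknown. According to the methods, the authors left out arrays of poor quality and used a percentile shift in GeneSpring, a filter on low signals and a moderated test.

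Here control and outlier spots were dropped and the other spots of a probe averaged. A probe counted as detected if the scanner software called the majority of these spots well above background. Each array was scaled to the 75th percentile of probes that were detected throughout the comparison (594 in the nucleus accumbens, 456 in the soleus, 417 in the EDL, 328 over all arrays), given a lower limit (24.3, 24.2, 18.7 and 21.2, the arrays' median of their faintest detected probe) and taken to log2. A miRNA was read from its brightest probe. miRNAs detected on at least 3 arrays (nucleus accumbens) or 2 (all other comparisons) were fitted with limma 3.58.1 in R 4.3.3, and p-values were adjusted after Benjamini and Hochberg over all of them. Replicates were separate mice. Between tissues, mouse was a random replicate block (correlation 0.0934), since mouse numbers in the labels mark the same animal. The fits were tested on simulated arrays with known changes. These had independent noise, without shared mice, and changes larger than the strain differences of the members. They therefore cannot show how the fits handle shared mice or differences of that size. The normexp alternative used the median spot signal, since the files hold no mean signal. The number of arrays limits the precision.

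The family, the lists and the rule for the miRNAs named (the members, list members past the test or else the brightest, and the 5 most alike) were chosen with earlier results of these data known. miR-486a-5p of the list on muscle cell differentiation was not matched.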

Additional observations from a re-analysis of the deposited data

How the results depend on the processing

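In nucleus accumbens over soleus and over EDL, miR-152-3p passed in all 15 other settings (-2.87 to -1.29 and -2.97 to -1.48) and miR-148b-3p in 14 of 15, the exception being the deposited signal per miRNA (0.36 and 0.29). The differences of miR-148a-3p, given as descriptions (0.64, -0.08 and -0.72 in the main setting), moved as follows. Nucleus accumbens over soleus was 0.085 over all probes, -0.26 after quantile normalization and 0.43 in low-active mice alone. Nucleus accumbens over EDL was -0.73 over all probes and -0.81 after quantile normalization. Soleus over EDL was -0.46 without scaling, -0.70 without the filter, -0.23 in low-active mice alone, -0.81 to -0.64 leaving out 1 array, and -0.85 with mouse as a fixed replicate block, a pairing under which 0 miRNAs were higher and 0 lower in that comparison and which changed no call of miR-148b-3p or miR-152-3p. The strain differences, high-active over low-active, moved as follows, and the cause was not tested. In the nucleus accumbens, miR-148b-3p was 0.12 over all probes, 0.28 without scaling, 0.11 as a mean of probes, 0.14 with settings near the methods and 0.090 within slide 2. miR-148a-3p was -0.21 and miR-152-3p 0.91 without scaling, and miR-152-3p 0.073 with normexp. In the soleus, miR-148a-3p was -0.79 over all probes, -1.75 without scaling, -0.58 with normexp, -0.076 with outlier spots kept, -0.74 with settings near the methods and -1.31 within slide 2. There miR-148b-3p was 0.21 over all probes, -0.75 without scaling, 0.26 with normexp, 0.44 with the deposited signal and 0.86 with settings near the methods, and miR-152-3p was 0.15 over all probes, -0.27 after quantile normalization, -0.81 without scaling, -0.25 with the deposited signal, 0.18 with settings near the methods, and 0.076 and -0.26 within slides 1 and 2. Leaving out 1 array, miR-148a-3p was -1.29 to -0.80 and miR-152-3p -0.27 to 0.067. In the EDL, miR-148a-3p was -0.51 and miR-152-3p -0.37 within slide 1, and miR-148b-3p -0.23 within slide 3. Over the other settings, the count of miRNAs higher and lower between strains was 3 to 7 and 1 to 22 in the nucleus accumbens (4 and 23 in the main setting), 0 to 4 and 0 to 51 in the soleus (1 and 3) and 0 to 3 and 0 to 6 in the EDL (1 and 0). Between tissues it was 72 to 245 and 82 to 204 for nucleus accumbens over soleus, 71 to 246 and 80 to 202 over EDL, and 0 to 56 and 0 to 60 for soleus over EDL. Groups of 2 arrays and the faint dimmer probe of miR-148b-3p in muscle limit the precision.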
